A study of Homo sapiens with 6 samples.

Results

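Aminoacyl-tRNA synthetases are the enzymes that load each amino acid onto its transfer RNA. The 36 genes described here are 20 that encode cytosolic enzymes and 16 that encode mitochondrial ones, chosen by gene symbol from the 18278 genes listed, and all 36 had a row. Proteins made on cytosolic ribosomes use the first set, and proteins made inside mitochondria use the second, which is also encoded in the nucleus and imported. In most cases an amino acid has a separate gene for each compartment, but GARS and KARS each supply both compartments. EPRS joins the glutamate and proline enzymes in 1 protein, and FARSA and FARSB are the alpha and beta subunits of 1 enzyme. Some of the cytosolic genes are known targets of ATF4, a transcription factor that is translated when amino acids run short.

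Toledo is an established human line from a diffuse large B cell lymphoma, grown in suspension. The study asked how lymphoma cells that carry mutated CREBBP or EP300, both acetyltransferases, respond to a block of CARM1. CARM1 methylates arginines on histones and transcriptional coactivators, and TP-064 inhibits it. The comparison is between 3 samples given 5 uM TP-064 for 6 days and 3 samples given the solvent DMSO for the same 6 days. The line stands for 1 tumour, the study's labels give no other genotype or clone, and nothing in them tells if the replicates came from different cultures. The p-values therefore reflect just the variation among the 6 samples, and that variation may be technical.

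Polyadenylated RNA was counted per gene, and all values below are normalized read counts, that is, reads divided by the size factor of the library, unless said otherwise. Reads over the listed genes came to between 41354131 and 48360867 per library. TP-064 replicate 3 stood apart from its group: its correlation with the other TP-064 libraries was 0.989 and 0.990 across tested genes, against 0.995 for those 2 with each other. Genes annotated as antisense took 0.338% of its reads, against 0.254% to 0.267% in the other TP-064 libraries and 0.210% to 0.217% after DMSO. The B cell markers MS4A1, CD79A, CD79B and PAX5 were all present, at summed levels of 88535 to 95380 in treated samples and 89699 to 91154 in controls. Each of the 4 was called changed, however: MS4A1 rose by 0.90 and PAX5 by 0.31 on the log2 scale, while CD79A fell by 0.62 and CD79B by 0.32. Of 16 markers of T cells, myeloid cells and epithelium, 5 had a row. The 1 T cell marker, CD4, read 19.8 to 24.4 with TP-064 and 3.11 to 6.49 with DMSO, the 3 myeloid markers summed to 71.2 to 99.5 and 34.6 to 65.6, and the 1 epithelial marker, KRT8, read 8.12 to 17.8 and 2.16 to 15.9. Among the myeloid markers CSF1R rose by 2.35 on the log2 scale, CD14 fell by 1.30 and LYZ was not called (-0.31). Their part in the results below was not tested. CARM1 mRNA fell by 0.24 on the log2 scale (SE 0.04), but TP-064 binds the enzyme and not its transcript, and this is no test of the labels.

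Of the 36 synthetase genes, 27 fell and 3 rose with TP-064, where 65.1% of all tested genes were called in either direction. Of the 20 cytosolic genes, 18 fell, 1 (QARS) rose and 1 (WARS) did not pass the test. A gene was called at a limma adjusted p under 0.05 over all tested genes, and over those 16048 genes 33.3% were called lower and 31.9% higher. The median log2 fold change of the 20 genes was -0.40, against 0.01 over all tested genes, where fold change is TP-064 minus DMSO on the scale of log2 of the normalized read count plus 1. TP-064 values all lay below the DMSO values in 18 cytosolic genes and above them in 1, patterns that 35.2% and 33.9% of tested genes had, 69.1% together. In bulk RNA, fewer cells of a kind and less RNA per cell cannot be told apart. Together the 20 genes took 0.472% ± 0.00229 of all reads in treated samples and 0.570% ± 0.00643 in controls (SD, n = 3 each), a measure that uses no size factor.

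**Figure D1:**
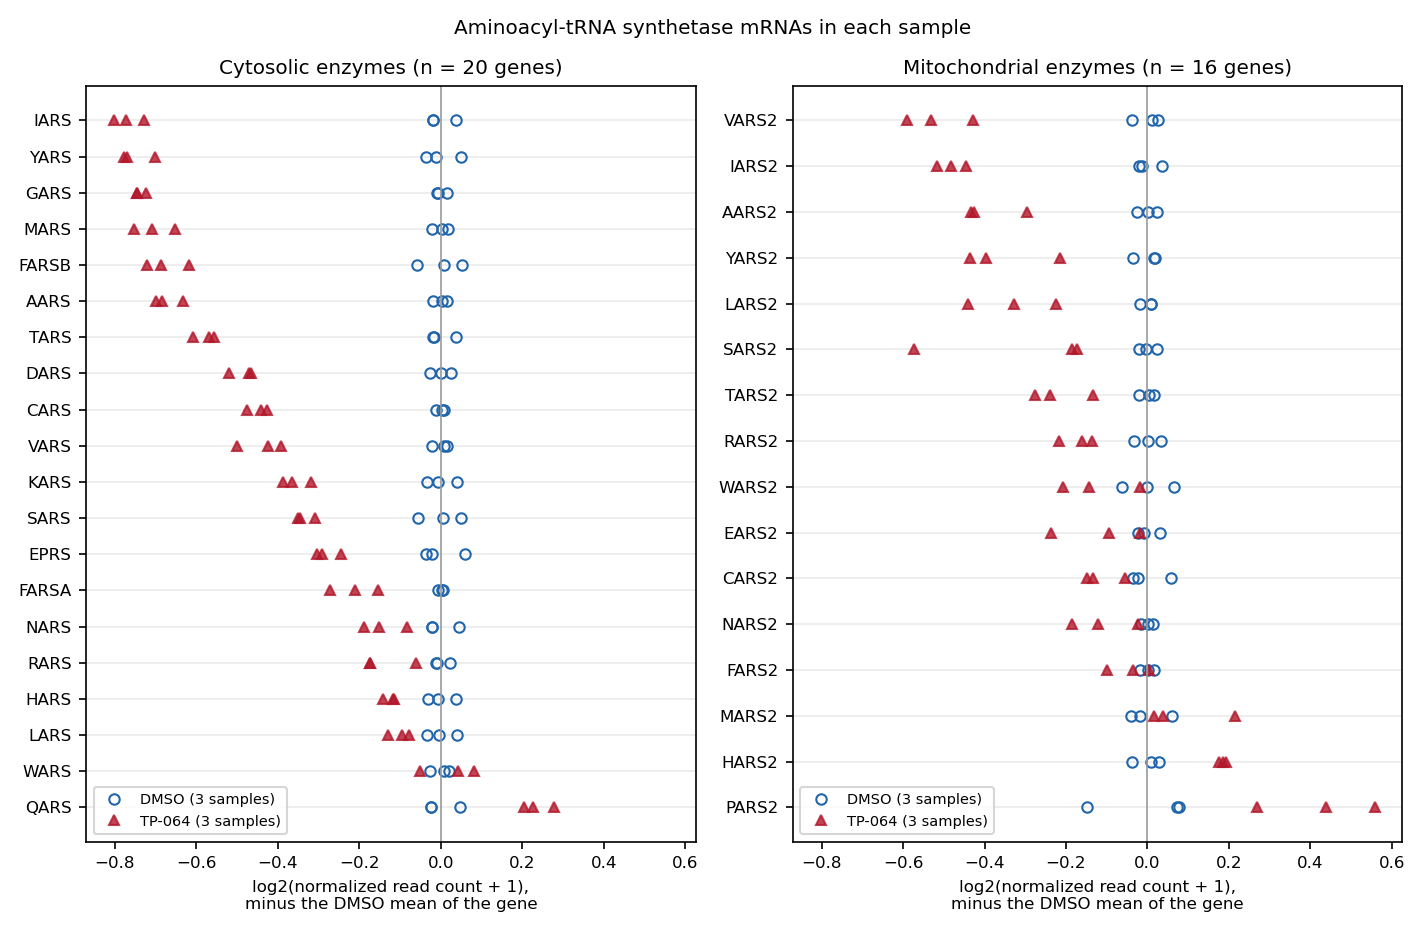
Each point is 1 sample, at log2 of its normalized read count plus 1 minus the DMSO mean of that gene (x axis, log2 units), for the cytosolic genes on the left and the mitochondrial genes on the right (y axis), with 3 TP-064 samples as triangles and 3 DMSO samples as open circles. The triangles lie left of the circles for 18 of 20 cytosolic genes and for 10 of 16 mitochondrial genes, and right of them for QARS, HARS2 and PARS2.

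The largest fall was in IARS, the isoleucine enzyme, on chromosome 9 from 92210207 to 92293756 on the minus strand of GRCh38. IARS read 13609, 14332 and 13889 with TP-064 and 23422, 24356 and 23442 with DMSO, for a log2 change of -0.77 (SE 0.03, limma adjusted p = 4.34e-11). Every treated sample was thus far below every control, and the level after TP-064 was 58.7% of that after DMSO. YARS, the tyrosine enzyme, read 8136, 8538 and 8093 against 13527, 14359 and 13756, for a log2 change of -0.75 (SE 0.04, limma adjusted p = 9.73e-11). GARS, the glycine enzyme of both compartments, on chromosome 7 from 30594681 to 30634033, read 9448, 9434 and 9592 against 15734, 16002 and 15763, for a log2 change of -0.74 (SE 0.03, limma adjusted p = 2.22e-11). In both genes the 3 treated values lay close together and well under the controls.

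MARS, the methionine enzyme, which also charges the initiator tRNA, read 13605, 14141 and 13203 with TP-064 and 21928, 22520 and 22291 with DMSO. Its log2 fold change was -0.71 (SE 0.03, limma adjusted p = 1.36e-10), again with no overlap between the groups. FARSB, the beta subunit of the phenylalanine enzyme, read 1958, 2054 and 1912 against 3166, 3266 and 3026, for a log2 change of -0.67 (SE 0.04, limma adjusted p = 2.42e-09). The alpha subunit FARSA fell less, by 0.21 on the log2 scale (95% interval -0.29 to -0.14), although the enzyme holds both subunits. Per kilobase of exon, the FARSA to FARSB ratio within a sample was 5.03, 4.98 and 4.93 with TP-064 and 3.58, 3.49 and 3.78 with DMSO. This ratio does not depend on scaling between libraries, and the groups did not overlap.

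AARS, the alanine enzyme, read 10580, 10963 and 10470 with TP-064 and 16778, 17027 and 17164 with DMSO, and its log2 fold change was -0.67 (SE 0.03). TARS, the threonine enzyme, fell to 67.0% of its DMSO level. DARS (aspartate), CARS (cysteine) and VARS (valine) fell to between 71.4% and 73.8%. KARS (lysine), SARS (serine), EPRS (glutamate and proline) and FARSA fell to between 78.1% and 86.3%. The smallest falls were in NARS (asparagine), RARS (arginine), HARS (histidine) and LARS (leucine), at 90.7%, 91.0%, 91.8% and 93.2% of the DMSO level. With scaling to library size alone, under which the all-gene median was 0.13 in place of 0.01, NARS, RARS and HARS were at -0.018, -0.013 and -0.0015 and lost their calls, and LARS turned to 0.021 and lost its call too. All 4 values are still under that median. LARS also lost its call with edgeR and without TP-064 replicate 1 or DMSO replicate 2.

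The promoters were searched because ATF4 binds with C/EBP partners at an amino acid response element, TGATGNAA, taken here on both strands in the 250 bases before the RefSeq start of each gene (GRCh38.p14). Promoters were matched for 16 cytosolic and 14 mitochondrial genes. DARS, LARS, VARS, YARS, AARS2 and VARS2 had no entry. The motif was present in 2 of 16 cytosolic promoters (IARS and AARS), in 1 of 14 mitochondrial promoters (YARS2) and in 3.19% of all 27305 promoters. The windows around the 3 matches are printed 5′ to 3′ on the strand of the gene, with the match in capitals, so that the 2 cytosolic sites can be set beside the mitochondrial one:
IARS: ttttcagcgcgTTGCATCAcctcc
AARS: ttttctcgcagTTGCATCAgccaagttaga
YARS2: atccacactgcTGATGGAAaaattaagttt
The IARS window is chr9:92293698-92293721 on the minus strand, inside an IARS exon of GENCODE 29, whose outermost start for the gene is 92293756. The AARS window is chr16:70289675-70289704 on the minus strand, upstream of AARS and inside an exon of DDX19B, which runs the other way. The YARS2 window is chr12:32756076-32756105 on the minus strand, in no annotated gene. The first printed base of the match lay 13, 187 and 197 bases before the RefSeq start of IARS, AARS and YARS2. IARS and AARS carry the same letters, TTGCATCA, which is the element read on the other strand. These are matches of letters, not measured binding sites. GARS, MARS, FARSB and TARS, which fell by 0.58 to 0.74 on the log2 scale, had no match in the window. The E-box CACGTG, a motif of MYC and related factors, on both strands, was present in 1 of 16 cytosolic promoters (IARS), in 2 of 14 mitochondrial promoters (EARS2 and MARS2) and in 6.49% of all promoters.

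QARS, the glutamine enzyme, was the 1 cytosolic gene that rose. It lies on chromosome 3 from 49095932 to 49105135 on the minus strand. QARS read 17844, 18471 and 17576 with TP-064 and 15001, 14983 and 15762 with DMSO, for a log2 change of 0.24 (SE 0.04, limma adjusted p = 2.88e-05). All 3 treated samples were above all 3 controls, and its log2 fold change stayed between 0.22 and 0.36 over the alternatives. WARS, the tryptophan enzyme, known as an interferon-induced gene, read 4120, 4236 and 3863 against 3926, 4021 and 4054. The WARS groups overlapped, with a log2 fold change of 0.03 (95% interval -0.06 to 0.11, limma adjusted p = 0.603), and it was called higher, at 0.15, with scaling to library size alone.

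In animal cells 8 of these cytosolic genes encode enzymes held in 1 multisynthetase complex (IARS, LARS, MARS, QARS, RARS, KARS, DARS and EPRS), built on 3 scaffold proteins without synthetase activity. Their mRNAs did not change by equal amounts. Of the 8, 7 fell and QARS rose, with log2 fold changes from -0.77 for IARS to 0.24 for QARS and a median of -0.32. The 12 genes outside the complex had a median of -0.44, with 11 lower and WARS not called. Beside these counts, 33.3% of all tested genes were called lower. The share was 55.2% among protein-coding genes with a mean of at least 4244, which hold 17 of the 20 cytosolic genes. Per kilobase of exon, the ratio of IARS to QARS within a sample was 0.485, 0.494 and 0.503 with TP-064 and 0.993, 1.03 and 0.946 with DMSO. This ratio needs no scaling between libraries, and the treated and control values were far apart.

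All 3 scaffold genes were called lower as well, beside 33.3% of all tested genes. Among protein-coding genes with means from 1998 to 4243, a range that holds AIMP1 and AIMP2, the share called lower was 46.1%. No test set these 3 genes apart from those shares. EEF1E1, which encodes the scaffold protein AIMP3, read 167, 177 and 204 with TP-064 and 368, 345 and 314 with DMSO, for a log2 change of -0.90 (SE 0.10, limma adjusted p = 1.09e-06). AIMP1 and AIMP2 fell by 0.25 and 0.17 on the log2 scale. Each of the 3 shares exonic bases with another gene, EEF1E1 with its own readthrough transcript on the same strand, AIMP1 with TBCK and AIMP2 with EIF2AK1 on the opposite strand, so their counts are uncertain.

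By structural class, the cytosolic genes were counted as 10 of class I and 10 of class II, which differ in the fold of the catalytic domain. EPRS was counted in class I for its glutamate part, although its proline part is of class II. Class I had 8 lower, 1 higher and a median of -0.36, and class II had 10 lower and a median of -0.42. These counts stand beside 33.3% of all tested genes called lower and 31.9% called higher. Of protein-coding genes with a mean of at least 4244, 55.2% were called lower. The range in each class was wide, from -0.77 to 0.24 and from -0.74 to -0.12. The difference between the classes was not tested.

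Of the 16 mitochondrial genes, 9 fell, 2 (PARS2 and HARS2) rose and 5 did not pass, beside the 33.3% and 31.9% of all tested genes called lower and higher. Their median log2 fold change was -0.15, against -0.40 for the cytosolic genes, a difference that was not tested. Summed over the 16 genes, reads were 0.0916% ± 0.00109 of the library in treated samples and 0.103% ± 0.000994 in controls (SD, n = 3 each). The summed normalized count of the cytosolic genes was 5.20, 5.07 and 5.19 times that of the mitochondrial genes after TP-064 and 5.52, 5.54 and 5.53 times after DMSO, so the cytosolic sum was lower relative to the mitochondrial sum in every treated sample. Without the 5 genes that share exonic bases with a listed gene on the opposite strand, the mitochondrial median was -0.22. With scaling to library size alone it was -0.025, against 0.13 for all genes, with 6 members lower and 3 higher.

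VARS2, the valine enzyme, fell most. It read 2983, 3206 and 2867 with TP-064 and 4199, 4394 and 4349 with DMSO, for a log2 change of -0.52 (SE 0.04, limma adjusted p = 5.74e-08). GTF2H4, on the same strand, shares 22.0% of the exonic bases of VARS2. IARS2, the isoleucine enzyme, read 11163, 11430 and 11716 against 15721, 16358 and 15803, for a log2 change of -0.48 (SE 0.03, limma adjusted p = 8.23e-09). It was by far the most abundant mitochondrial member, and both genes had treated values wholly under the controls.

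PARS2, the proline enzyme, on chromosome 1 from 54756898 to 54764514, had the largest rise of all 36 genes. PARS2 read 456, 496 and 405 with TP-064 and 303, 355 and 354 with DMSO, for a log2 change of 0.42 (SE 0.09, limma adjusted p = 6.89e-04). The groups did not overlap, and its SE was the largest among the called synthetases. HARS2, the histidine enzyme, on chromosome 5 from 140691426 to 140699318, read 2335, 2321 and 2306 against 1990, 2055 and 2082, for a log2 change of 0.18 (SE 0.04, limma adjusted p = 6.16e-04). Its treated values lay within a narrow range above all controls.

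AARS2 (alanine), YARS2 (tyrosine) and LARS2 (leucine) fell to 76.6%, 78.5% and 79.5% of their DMSO level. TARS2 (threonine) fell to 86.1% and RARS2 (arginine) to 88.8%. CARS2 (cysteine) and NARS2 (asparagine) fell by 0.11 each on the log2 scale, but with scaling to library size alone they turned to 0.010 and 0.013 and were not called. CARS2, NARS2 and RARS2 also lost their calls without TP-064 replicate 1 or without DMSO replicate 2. CARS2 and NARS2 lost theirs without TP-064 replicate 3, and NARS2 without DMSO replicate 1 or 3. RARS2 kept its sign but lost its call with scaling to library size alone, at -0.049. All 3 genes missed the threshold with edgeR (adjusted p = 0.0517 for CARS2, 0.0739 for NARS2 and 0.0570 for RARS2). NARS2 and RARS2 missed it with DESeq2 too (adjusted p = 0.0536 and 0.0592).

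The 5 mitochondrial genes that did not pass were EARS2, FARS2, MARS2, SARS2 and WARS2. EARS2, the glutamate enzyme, read 2184, 2301 and 1979 with TP-064 and 2295, 2382 and 2316 with DMSO, at -0.12 (limma adjusted p = 0.0566), and without TP-064 replicate 2 it was called lower at -0.16. MARS2, the methionine enzyme, read 1034, 1169 and 1018 against 1050, 979 and 994, at 0.09 (95% interval -0.04 to 0.21), and was called higher, at 0.21, with scaling to library size alone. FARS2 (phenylalanine) and WARS2 (tryptophan) were at -0.04 and -0.12, with 95% intervals of -0.16 to 0.07 and -0.28 to 0.03. In these 4 genes the treated and control values overlapped. SARS2, the serine enzyme, was the lowest member, at 81.3, 82.1 and 61.9 against 91.4, 92.5 and 94.1, and its log2 fold change of -0.31 had an interval of -0.63 to 0.01. A same-strand gene, AC011455.2, shares 46.2% of the exonic bases of SARS2, so its count is uncertain.

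For 15 amino acids both a cytosolic and a mitochondrial gene were listed, giving 16 pairs because of the FARSA and FARSB subunits. The cytosolic gene had the lower log2 fold change in 12 pairs and the higher in 4. Both members fell in 9 pairs, and in 1 pair the members were called in opposite directions. Over all tested genes 33.3% were called lower and 31.9% higher, and the pair counts were not tested against these shares. No model tested the difference within a pair, so within-sample ratios are given for the pairs described.

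**Figure D2:**
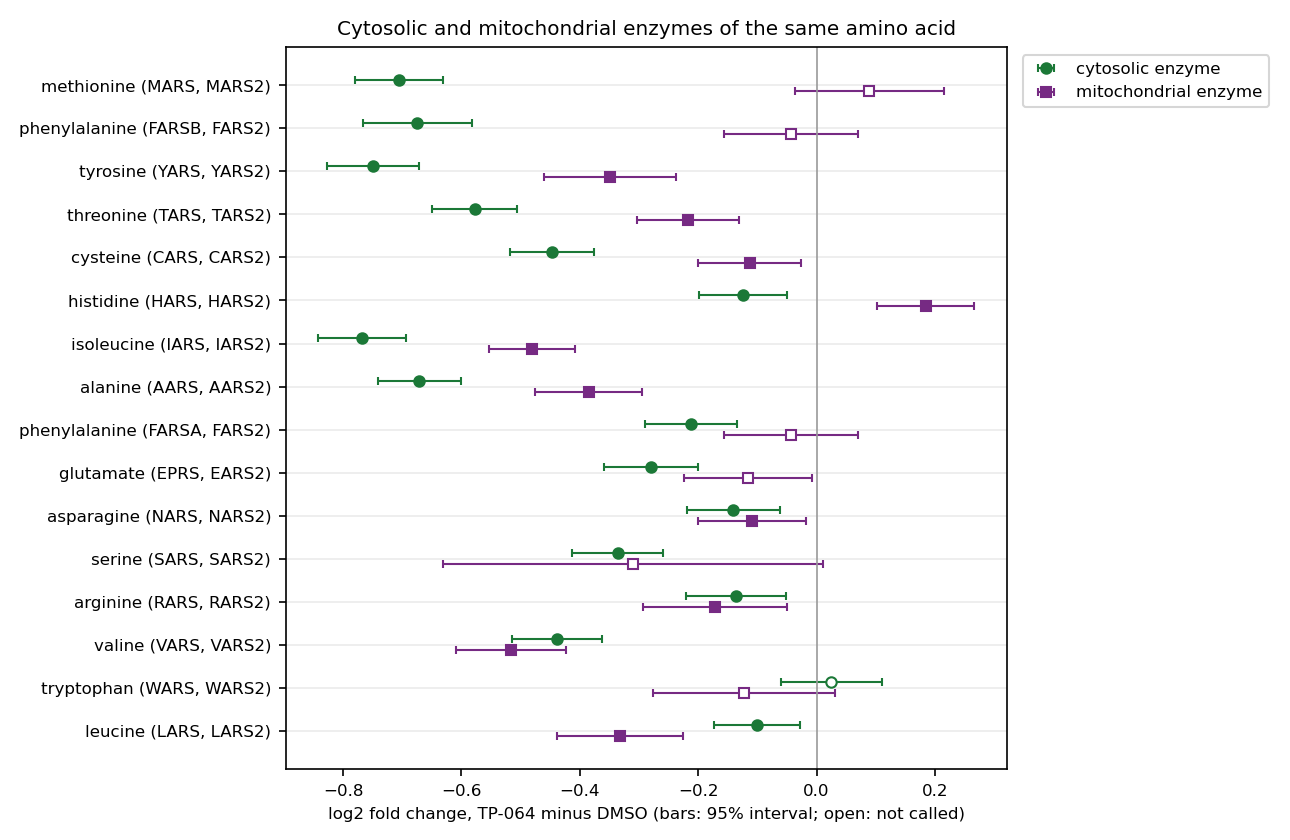
Each row is 1 of the 16 gene pairs, with the log2 fold change (x axis, TP-064 minus DMSO) of the cytosolic gene as a circle and of the mitochondrial gene as a square, bars for the 95% interval, and open symbols for genes not called. The distance between the 2 is largest for methionine, at -0.71 for MARS and 0.09 for MARS2, and the order is turned for leucine, at -0.10 for LARS and -0.33 for LARS2.

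The widest gap was in the methionine pair. Per kilobase of exon, MARS was 5.65, 5.20 and 5.57 times MARS2 after TP-064 and 8.97, 9.88 and 9.63 times after DMSO. In the tyrosine pair the ratio of YARS to YARS2 was 1.08, 0.999 and 1.10 with TP-064 and 1.34, 1.43 and 1.42 with DMSO. In both pairs the cytosolic transcript lost ground to the mitochondrial one in each treated sample. The leucine pair went the other way, with LARS at 6.83, 6.52 and 7.68 times LARS2 after TP-064 and 6.02, 6.08 and 5.78 times after DMSO. Proline has no cytosolic gene of its own: EPRS, the enzyme for proline in the cytosol, fell by 0.28 on the log2 scale, whereas PARS2 rose by 0.42.

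HARS and HARS2 are the pair called in opposite directions, and they are neighbours. They lie head to head on chromosome 5, with outermost annotated starts 436 bases apart, and share 437 exonic bases on opposite strands. HARS read 4091, 4024 and 4096 with TP-064 and 4341, 4416 and 4554 with DMSO, for a log2 change of -0.12 (SE 0.03, limma adjusted p = 0.00570). The HARS to HARS2 ratio per kilobase of exon was 0.834, 0.825 and 0.845 with TP-064 and 1.04, 1.02 and 1.04 with DMSO, with no overlap. If the counting did not use strand, reads in the shared bases could not be told apart by strand. Both counts would then be uncertain, and no source used here gives the strand setting.

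Of the 36 genes, 14 have an oppositely directed listed gene starting within 1000 bases. Both genes were called in the same direction in 2 cases, CARS2 and RARS2. Over all tested genes 33.3% were called lower and 31.9% higher, and the agreement of neighbours was not tested against these shares. GARS-DT, the divergent transcript of GARS, read 1727, 1648 and 1606 with TP-064 and 1103, 1183 and 1003 with DMSO and rose by 0.60 on the log2 scale (SE 0.06), while GARS fell. TERF2IP, a telomere protein gene beside KARS, rose by 0.41, while KARS fell. DDX19B, beside AARS, was at -0.09 and not called. ORC3, an origin recognition gene beside RARS2, and ING1, beside CARS2, fell by 0.38 and 0.24. Some of these neighbours share exonic bases with the synthetase, and 15 of the 36 genes share such bases with a listed gene on the other strand. The antisense partners CARS-AS1, FARSA-AS1, AC091887.1 (at LARS) and AL157871.4 (at WARS) read 19.3, 18.3, 28.4 and 20.3 in TP-064 replicate 3 and at most 2.16 in the other libraries, beside at least 3863 for each of these synthetases in that library, and the cause was not tested.

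Levels were compared between genes only per kilobase of merged exon. That length counts every annotated exon of a gene, used or not, so the order of genes depends on the annotation. In DMSO the cytosolic genes ran from 565 for HARS to 6643 for EPRS, with a median of 2725, and the mitochondrial genes from 28.7 for SARS2 to 3832 for IARS2, with a median of 388. IARS2, at 3832, was above IARS, at 3208, in controls, and the 2 were at 2746 and 1884 after TP-064. This order rests on merged exons of 4.165 kb for IARS2 and 7.401 kb for IARS. Before division by length, IARS was the higher in DMSO, at a mean of 23740 against 15961. After EPRS, the genes IARS2, GARS and AARS stood highest in DMSO at 3832, 3813 and 3777, and GARS and AARS were at 2286 and 2372 after TP-064, below QARS at 3816.

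**Figure D3:**
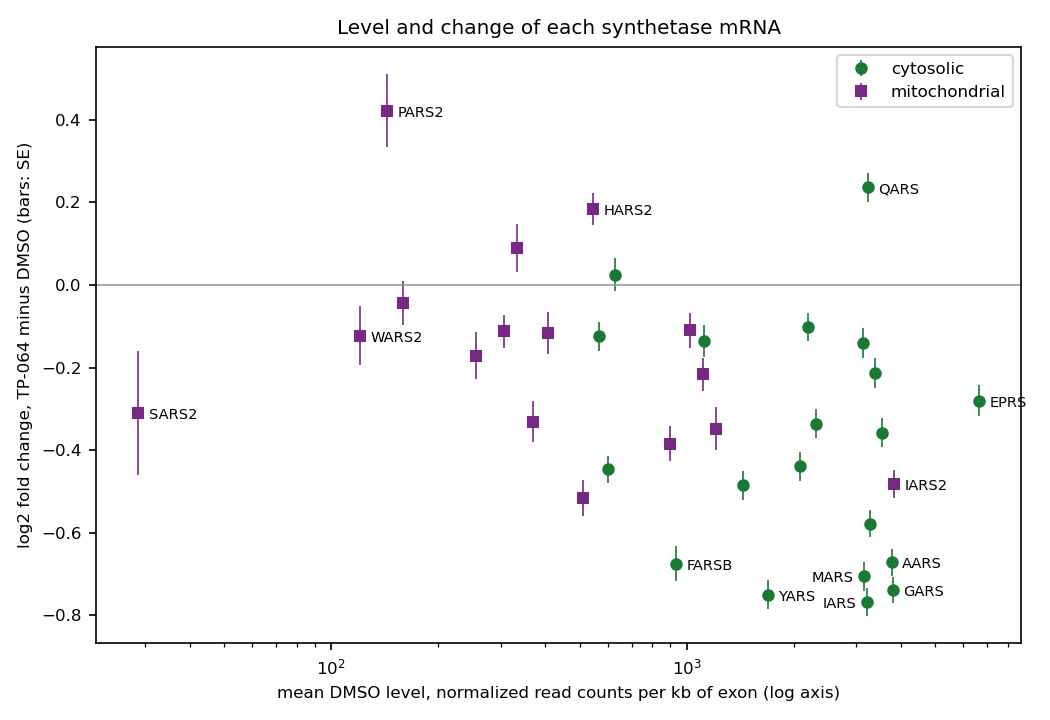
Each point is a gene, with its mean DMSO level in normalized read counts per kilobase of exon (x axis, log scale) and its log2 fold change, TP-064 minus DMSO (y axis, bars for the SE), circles for cytosolic and squares for mitochondrial genes. Genes of similar level differ widely in change, as QARS at 3239 and 0.24 and IARS at 3208 and -0.77 show.

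Across the 20 cytosolic genes, Spearman's rho between DMSO level per kilobase and log2 fold change was -0.21, and across the 16 mitochondrial genes it was -0.41. These are descriptions across genes of the same libraries, and genes are not replicates. Abundance bears on the background for the counts above, because 17 of the 20 cytosolic genes and 1 mitochondrial gene are among the tested protein-coding genes with a mean of at least 4244. Of those 2433 genes, 55.2% were called lower and 27.9% higher, and the median was -0.14. The genes with means from 1998 to 4243, with 9 mitochondrial and 3 cytosolic genes among them, had 46.1% lower and a median of -0.06. Protein-coding genes with means of 908 to 1998, 180 to 908 and 10 to 180 held 1, 4 and 1 mitochondrial genes. Of these protein-coding genes 40.3%, 32.3% and 22.6% were called lower, in that order. Against these shares the cytosolic count of 18 lower in 20 is 90.0%, and the mitochondrial count of 9 in 16 is 56.3%.

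Genes that act beside the synthetases were read from lists of related function, whose counts stand beside the 33.3% of all tested genes called lower and the 31.9% called higher. In mitochondria glutamine is not charged directly: EARS2 first loads glutamate onto the glutamine tRNA, and the GatCAB amidotransferase (QRSL1, GATB and GATC) converts it. Of the 4 genes for this step and for formylation of the initiator tRNA, 3 rose and 0 fell, and no test set this list apart from that background. QRSL1, the catalytic subunit, on chromosome 6 from 106629578 to 106668417, read 7474, 7956 and 7763 with TP-064 and 2927, 2948 and 2890 with DMSO, for a log2 change of 1.40 (SE 0.04, limma adjusted p = 8.91e-14). This is 2.65 times the DMSO level, a larger change than that of any of the 36 synthetase genes. GATC rose by 0.27 and MTFMT, the formyltransferase, rose by 0.17, while GATB, the remaining subunit, read 1124, 1147 and 1179 against 1139, 1220 and 1171 and did not pass (-0.03). The QRSL1 to GATB ratio per kilobase was 14.3, 14.9 and 14.2 with TP-064 and 5.54, 5.21 and 5.32 with DMSO. QRSL1 shares no exonic bases with another annotated gene on its strand or with a listed gene on the other, while GATC shares 1729 bases with SRSF9 on the opposite strand.

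TARSL2, a second cytosolic threonine enzyme, is not among the 36 genes and was named after its values were seen. It read 2038, 2043 and 2088 with TP-064 and 941, 1034 and 1046 with DMSO, for a log2 change of 1.03 (SE 0.05, limma adjusted p = 7.73e-11). TARS fell over the same comparison, and the TARS to TARSL2 ratio per kilobase was 4.84, 4.97 and 4.90 with TP-064 and 15.8, 14.9 and 14.2 with DMSO. TARS remained the more abundant of the 2 transcripts in every sample. The list that holds TARSL2, on proofreading and release of peptidyl-tRNA, had 4 of the 7 members reported here lower and 1, TARSL2 itself, higher. MRPL58, a release enzyme of the mitochondrial ribosome, DTD1, which removes D-amino acids from tRNA, and AARSD1, an editing protein, fell by 0.50, 0.46 and 0.38. AARSD1 was low, at 69.9, 68.3 and 94.4 with TP-064 and 95.5, 99.4 and 106 with DMSO. It passed narrowly (SE 0.15, limma adjusted p = 0.0404). AARSD1 and DTD1 share exonic bases with PTGES3L-AARSD1 and AL121900.2, in that order, on the same strand.

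Elongation factors, which take the charged tRNA to the ribosome, moved both ways. EEF1A1, the main cytosolic carrier, rose by 0.38 and EEF1B2, a subunit of its exchange factor, rose by 0.12, while EEF1D, another such subunit, fell by 0.28, and EEF1A2 was below the level tested. EEF1A1 has many processed copies that can share reads. Of the 4 mitochondrial factors, TSFM, TUFM and GFM1 fell by 0.34, 0.18 and 0.13 and GFM2, a recycling factor, rose by 0.11. EEF1D shares 2934 exonic bases with AC067930.6 on the opposite strand. EEF1B2, TSFM, GFM1 and GFM2 also share exonic bases with a listed gene on the opposite strand.

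Of 23 tested genes of tRNA processing and export, 11 fell, 3 rose and 9 did not pass, with a median of -0.15. POP7, a subunit of RNase P, which trims the 5′ end, fell by 0.88, SSB, the La protein that binds new RNA polymerase III transcripts, fell by 0.61, and HSD17B10, a subunit of mitochondrial RNase P, fell by 0.54. ELAC1, a 3′ end nuclease, rose by 0.50. XPOT, the export receptor for tRNA, named after its values were seen, read 21272, 21578 and 21262 with TP-064 and 29215, 30021 and 30196 with DMSO and fell by 0.48. Of 23 genes of RNA polymerase III and its factors, 11 fell, 2 rose and 10 did not pass, with a median of -0.10. The polymerase subunits POLR3K and POLR3G fell by 1.36 and 0.72, GTF3A, the factor TFIIIA of 5S genes, fell by 0.55, and BRF1, a TFIIIB subunit used at tRNA genes, rose by 0.49. The share called lower was 47.8% in each of these 2 lists, against 39.3% of all tested protein-coding genes. SSB, POLR3K, POLR3G, GTF3A and BRF1 share 572, 153, 260, 181 and 627 exonic bases with a listed gene on the opposite strand. ELAC1 shares exonic bases with AC091551.1 on the same strand.

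In the amino acid response list 5 of 10 tested genes fell and 3 rose, with a median of -0.19. Both shares are near those of all tested protein-coding genes, of which 39.3% were lower and 34.3% higher. ATF4 mRNA read 18528, 19165 and 18094 with TP-064 and 23262, 24582 and 24819 with DMSO, for a log2 change of -0.38 (SE 0.04, limma adjusted p = 3.08e-07). CHAC1, which degrades glutathione, and TRIB3, a pseudokinase, fell by 1.02 and 0.40, and SESN2, an inhibitor of mTORC1, rose by 0.26. DDIT3, which shares 355 exonic bases with MARS on the opposite strand, did not pass (-0.10). ASNS, the asparagine synthetase, which makes free asparagine rather than charging tRNA, read 176, 178 and 180 against 162, 216 and 190 and did not pass (-0.08, 95% interval -0.32 to 0.16). Its exons are shared with AC079781.5 on the same strand, so its level is uncertain. ATF4 is controlled mainly at translation, so its mRNA does not report the amount of protein.

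**Figure D4:**
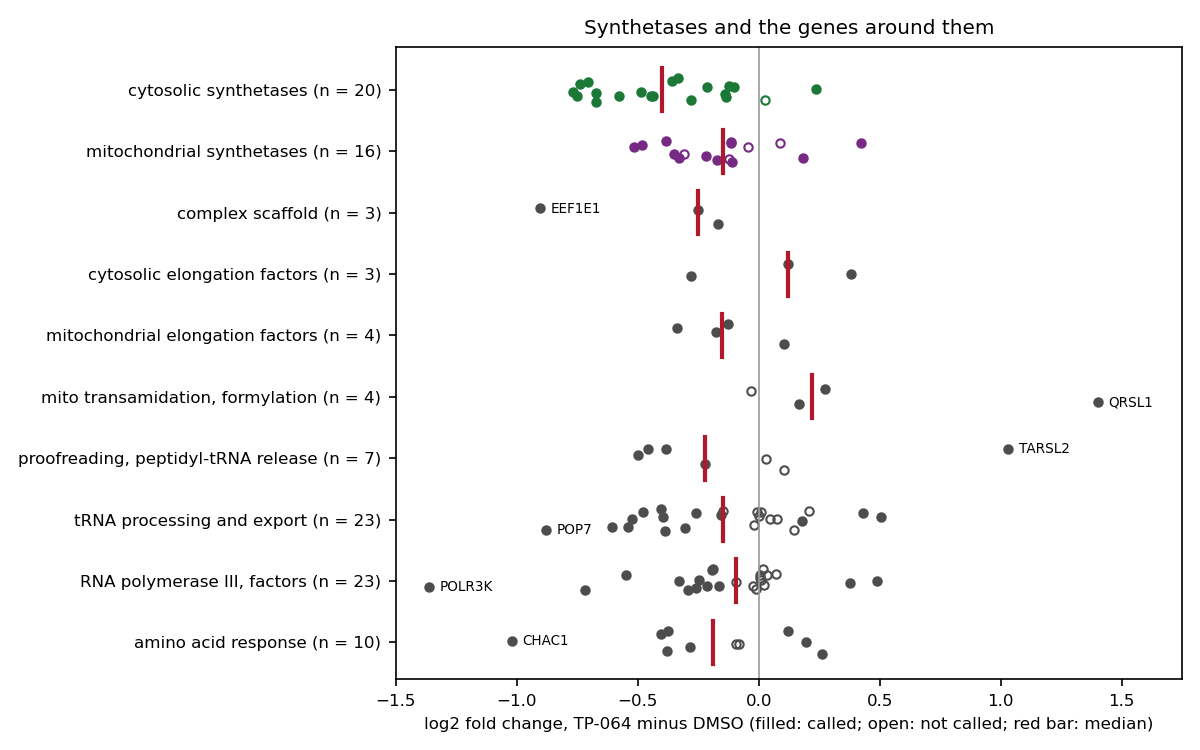
Each point is a tested gene at its log2 fold change (x axis, TP-064 minus DMSO), in rows for the 2 synthetase sets and 8 lists of related genes (y axis), filled where called and open where not, with the median of the row as a red bar. The cytosolic set is centred at -0.40 and the mitochondrial set at -0.15, and QRSL1 and TARSL2 lie apart at 1.40 and 1.03.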

How the data were processed

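RNA from 6 samples of the Toledo line (3 TP-064, 3 DMSO) was sequenced from strand-specific mRNA libraries, per the labels' protocols. The tools were TopHat2 2.0.10, HTSeq 0.6.0 and DESeq 1.18.0, on build hg38, per the submitters' processing notes. No source used here gives the annotation release or the strand setting of counting. The authors deposited 1 table whose values are a signal: reads of each gene over the size factor of the library. In each column 100% of values were whole multiples of 1 step within a tolerance of 0.001, and the inverse of the step matched the recomputed size factor. For replicate 2 of each group the step is close to 1, so recovery of reads there rests on that match and count tests carry this limit.

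Columns were matched to samples by name. limma 3.58.1 (R 4.3.3, trend) was fitted to log2 of the value plus a pseudocount of 1 over 16048 genes with a mean of at least 10, with 4 residual degrees of freedom, no replicate block and Benjamini-Hochberg adjustment over all these genes, two-sided. All 36 members passed the filter, none of them through 1 group only, since the lowest count of any member in any library was 61 reads. On simulated data with 100 genes planted per fold, among 15684 tested genes, 99% of 1.5-fold and 100% of 2-fold changes were recovered. All planted genes had a mean of at least 200. Smaller changes were not planted, and far fewer genes were changed than the 65.1% called here, so the recovery does not cover most calls. Replicate pairs differed by more than sampling noise (chi-square per degree of freedom 3.21 to 8.10). Symbols, exons and coordinates are from GENCODE 29 (GRCh38), matched for 18214 of 18278 genes, and promoters from RefSeq. Members and lists were chosen with earlier results of these data known. Named in full were the 5 cytosolic and 3 mitochondrial called genes of largest absolute change, those of the less frequent direction and all not called; from each list, the called genes of largest change, at most 3 for the commoner direction and 1 for the rarer. Alternatives were other pseudocounts, filters, scaling, edgeR 4.0.16, DESeq2 1.42.0, a replicate block, each replicate left out and a threshold of 0.01. EEF1G, IMPACT and 11 cell type markers were not analysed here. A further B cell marker and a further gene of the proofreading list are not reported here.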

Additional observations from a re-analysis of the deposited data

How the results depend on the processing

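Of the 36 genes, 26 stayed on their side of the threshold under all 15 alternatives, and all of these kept their direction except FARS2, which was not called and went from -0.04 to 0.08 with scaling to library size alone. With scaling to library size alone, calls over all genes were 6653 higher and 4158 lower, 61.5% higher against 48.9%. The cytosolic count was then 2 higher and 14 lower, at a median of -0.28, and the mitochondrial median was -0.025. LARS, CARS2 and NARS2 reversed there to 0.021, 0.010 and 0.013, and none of the 3 was called. With edgeR the cytosolic median was -0.37, and 17 cytosolic genes and 6 mitochondrial genes were lower. With DESeq2 the counts were 18 and 7. Mitochondrial genes without opposite-strand overlap had a median of -0.22. With 1 replicate left out, the count of lower cytosolic genes was 17 to 18 and of lower mitochondrial genes 6 to 10. The replicate block gave 18 cytosolic and 10 mitochondrial genes lower, because EARS2 was called (adjusted p = 0.0324), and it changed no other call among the 36 genes. Same-numbered samples did not deviate together (correlations -0.09, 0.07 and -0.08). With 3 samples per group this cannot tell if the numbers mark pairs. At a threshold of 0.01, 17 cytosolic and 6 mitochondrial genes were lower. SARS2 rests on as few as 61 reads in a library.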
